A study of Mus musculus with 4 samples.

Results

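The PI3K-mTOR regulators described here are 9 genes, taken by name from the 24411 genes counted in haematopoietic stem cells (HSC) of the mouse. They comprise 5 activators (Mtor, Rptor, Rictor, Rheb and Rragb) and 4 brakes (Tsc1, Tsc2, Inpp5d and Ddit4). Each had a row in all 4 libraries, and all 9 were among the 10663 genes with enough counts to be tested. Mat KO mice (2 libraries) were set against wild-type mice (WT, 2 libraries). The study's title links snoRNAs of the imprinted Dlk1-Gtl2 locus to long-term HSC self-renewal, rRNA modification and translation. The labels give no strain, age, sex or treatment for either genotype, and do not say which stretch of the locus Mat KO animals lack. Nor do they say if a genotype's libraries came from different animals, so a p-value speaks only of the spread among these 4 libraries, and that spread may be technical. Cells were sorted from bone marrow by flow cytometry, picked singly with a mouth pipette and sequenced by a modified STRT-seq protocol. Reverse transcription there starts from oligo-dT primers with a barcode for the cell and a random tag for the molecule (unique molecular identifier, UMI), and what is counted are tags from the 3' side of polyadenylated RNA.

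Growth factor receptors activate PI3K, a lipid kinase whose product recruits the kinase AKT, and AKT inactivates the TSC1-TSC2 complex. That complex switches off the small GTPase RHEB, which in its active form turns on mTOR complex 1 (mTORC1) at the lysosome, where Rag GTPases bring it when amino acids are present. mTORC1 drives protein synthesis and cell growth, whereas mTORC2 phosphorylates AKT. Adult HSC are mostly quiescent and make little protein, and deletion of Tsc1 in mice is known to push HSC out of quiescence. The pathway is set largely by phosphorylation and by location in the cell, which transcript counts do not measure.

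A higher share of all UMIs in both Mat KO libraries than in both WT libraries was seen for 4 of the 9 genes in all cells, without the leading cell of each library and in cells low in mature-lineage markers. At equal depth per cell the same 4 genes were found in a larger share of Mat KO cells. They were Rptor and Rragb among the activators and Inpp5d and Ddit4 among the brakes. None of the 9 passed edgeR's quasi-likelihood test at a Benjamini-Hochberg adjusted p of 0.05. By that test 0.075% of all 10663 genes passed. Over all genes tested, 17.8% had the order of these 4 in all cells, 14.5% without leading cells, 16.6% in the cells low in markers and 14.3% in the share of cells at equal depth. Each share is for 1 setting alone, and the share of genes with that order in every setting was not computed. In all cells alone 5 members had it, the 4 and Rictor. Both sides of the pathway were thus represented among the 4. The low-marker cells here are those under a limit of 1% of UMIs, and at a limit of 0.5% fewer members had the order. These settings reuse the same cells, so they are not separate evidence. The 9 genes were proposed with earlier results of these data known. The counts therefore describe the members and are not support for a change of the pathway.

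The stretches of 250 bases before the RefSeq start of these 4 genes are shown because these are the members that were higher in both Mat KO libraries in each of these settings (GRCm38.p6, strand of the gene, 5′ to 3′). They lie at chr11:119602655-119602904 (plus strand) for Rptor, chrX:153139708-153139957 (plus strand) for Rragb, chr1:87620062-87620311 (plus strand) for Inpp5d and chr10:59951771-59952020 (minus strand) for Ddit4. Capitals mark matches to 6 motifs searched on both strands, which were ACGTG (the core of hypoxia response elements), CACGTG (the E-box bound by USF, MYC and TFEB), GTAAACA (FOXO factors), TGATGNAAN (ATF4), the glucocorticoid response element by its name and TGACGTCA (CREB).
Rptor: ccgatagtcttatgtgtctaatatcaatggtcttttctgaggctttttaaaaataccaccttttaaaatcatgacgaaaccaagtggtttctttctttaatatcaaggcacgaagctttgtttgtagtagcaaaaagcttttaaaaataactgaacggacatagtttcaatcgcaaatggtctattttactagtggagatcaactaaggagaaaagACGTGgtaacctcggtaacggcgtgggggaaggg
Rragb: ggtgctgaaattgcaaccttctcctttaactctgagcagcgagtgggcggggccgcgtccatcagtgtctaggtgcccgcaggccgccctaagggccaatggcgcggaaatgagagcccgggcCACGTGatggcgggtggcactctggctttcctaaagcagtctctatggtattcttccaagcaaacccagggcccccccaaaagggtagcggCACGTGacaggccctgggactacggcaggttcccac
Inpp5d: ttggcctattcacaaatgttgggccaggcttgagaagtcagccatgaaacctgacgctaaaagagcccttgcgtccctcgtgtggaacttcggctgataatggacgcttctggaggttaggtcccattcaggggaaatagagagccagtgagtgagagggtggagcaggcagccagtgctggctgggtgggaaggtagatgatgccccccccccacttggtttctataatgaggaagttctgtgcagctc
Ddit4: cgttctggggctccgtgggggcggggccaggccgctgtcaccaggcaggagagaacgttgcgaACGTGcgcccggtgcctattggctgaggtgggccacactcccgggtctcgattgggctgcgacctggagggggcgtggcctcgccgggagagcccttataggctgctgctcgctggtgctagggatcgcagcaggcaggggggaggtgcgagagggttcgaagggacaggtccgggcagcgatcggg
ACGTG occurred in the Rptor stretch at -34 to -30 and in the Ddit4 stretch at -187 to -183, counted from the start, and 16.6% of all 32851 promoters hold it in a window of the same length. CACGTG, which contains ACGTG on both strands, occurred in the Rragb stretch at -127 to -122 and again at -36 to -31, and 6.02% of promoters hold it. Among the members not printed, Rheb held CACGTG at -96 to -91. No searched motif was found in the stretches of Inpp5d, Mtor, Rictor, Tsc1 and Tsc2, and no member held GTAAACA (3.17% of promoters), TGATGNAAN (3.44%), the glucocorticoid response element (0.387%) or TGACGTCA (1.55%). These matches are letters in a window and were not tested as binding sites. The base composition also varied, with 37.6% G and C in the Rptor stretch, 61.6% in Rragb, 54.4% in Inpp5d and 70.0% in Ddit4, where the median over all promoters was 52.4%.

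Cells were barcodes with 1000 or more genes detected, 188 in total, of which Mat KO replicate 1 had 44 and the other 3 libraries 48 each. They held 1900319 and 1768647 UMIs in Mat KO libraries, against 3183279 and 3253608 in WT libraries, and the median cell had 33612.5 and 27845 UMIs in Mat KO libraries, against 53092.5 and 51437 in WT. All 18 long-term HSC markers were detected in every library, and their median share of a cell's UMIs in cells low in mature-lineage markers was 0.283% and 0.257% in Mat KO libraries, against 0.271% and 0.248% in WT libraries. Granulocyte and monocyte markers, at least 13 of 16 detected per library, came to a sum of 38480 and 6027 CPM (UMIs per 1000000 UMIs of the library) in Mat KO and 7668 and 3703 CPM in WT, with Ctsg at 0 in 3 libraries, Elane at 0 in 2 and Csf1r at 0 in 1. B-lymphoid markers summed to 1451 and 1318 CPM in Mat KO libraries, against 1214 and 558.5 CPM in WT (Pax5 at 0 in 1 library of each genotype), and T and NK markers to 284.7 and 87.6 CPM in Mat KO libraries, against 13.8 and 76.5 CPM in WT (Cd3e at 0 in all 4). Erythroid markers summed to 88.4 and 46.4 CPM in Mat KO libraries, against 100.8 and 772.1 CPM in WT, and mast cell and basophil markers to 36.3 and 52.6 CPM in Mat KO libraries, against 2.51 and 17.8 CPM in WT, with the globin genes at 0 throughout. Of the 5 mast cell and basophil markers 4 (Mcpt8, Prss34, Fcer1a and Ms4a2) were at 0 in every library, so that sum is Cpa3 alone. Megakaryocyte markers, at least 5 of 6 detected per library, were lower in both Mat KO libraries, with 104.7 and 189.4 CPM, against 256.0 and 235.7 CPM in WT, and Ppbp was at 0 in both Mat KO libraries. A granulocyte and monocyte list share of at least 1% of UMIs was reached by 10 and 3 Mat KO cells and 2 and 3 WT cells, and a B-lymphoid share by 1 cell in each Mat KO library and in WT replicate 1. These marker cells held 25.8% and 12.9% of UMIs in Mat KO libraries and 3.63% and 5.04% in WT libraries. The others, 33 and 44 cells in Mat KO libraries and 45 and 45 in WT libraries, are called lineage-low cells here. Depth and marker cells both move with genotype, so members are also given at equal depth and in lineage-low cells. Lineage-low cells still held marker UMIs, and 4 lists still separated the genotypes there. B-lymphoid markers summed to 1885 and 1221 CPM in lineage-low cells of Mat KO, against 1140 and 584.9 CPM in WT, and T and NK markers to 359.0 and 94.8 CPM in Mat KO, against 13.7 and 72.8 CPM in WT. Cpa3 stood at 46.8 and 59.7 CPM in Mat KO, against 2.61 and 15.5 CPM in WT, and megakaryocyte markers at 123.5 and 175.2 CPM in Mat KO, against 265.7 and 232.7 CPM in WT. Granulocyte and monocyte markers overlapped there, at 3279 and 1095 CPM in Mat KO and 1314 and 1433 CPM in WT. Their part in the values of the members was not tested. Meg3, a maternal noncoding RNA of the locus, had 18.4 and 32.8 CPM in Mat KO and 52.8 and 47.0 CPM in WT, and a 3' tag outside a deleted stretch does not check the genotype. The 9 members had 5398 UMIs in the kept cells and 4 in the 196 barcodes left out.

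The kinase at the core of both complexes is encoded by Mtor (chr4:148448611-148557683, GRCm38, plus strand, protein-coding like all 9 members). Mtor had 62 and 29 UMIs in Mat KO libraries, against 83 and 39 in WT libraries, which is 32.6 and 16.4 CPM in Mat KO and 26.1 and 12 CPM in WT. The genotypes overlapped, since each replicate 1 was above each replicate 2. Its log2 fold change, Mat KO minus WT, was 0.39 (SE 0.75, edgeR adjusted p = 0.945). The leading Mat KO cells carried a large share of it: 30 of 62 UMIs in replicate 1 (48.4%) and 17 of 29 in replicate 2 (58.6%) came from 1 cell each, both of them cells with granulocyte and monocyte markers. In lineage-low cells Mtor had 16.3 and 7.14 CPM in Mat KO libraries, against 24.1 and 12 CPM in WT, and its log2 fold change there was -0.61 (edgeR adjusted p = 0.952). Mtor was seen in 9 of 44 and 7 of 48 Mat KO cells, against 17 of 48 and 11 of 48 cells in WT. At equal depth (8877 UMIs per cell), the shares were 13.4% and 7.41% in Mat KO libraries, against 19.4% and 9.25% in WT, which overlap. Such a share is the mean chance that 8877 UMIs drawn from a cell hold at least 1 of the gene. In library sums, fewer cells with a transcript and less of it per cell cannot be told apart, here and for every member below.

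Rptor (chr11:119602905-119899576, plus strand) encodes Raptor, the subunit that brings substrates to mTORC1. It had 80 and 63 UMIs in Mat KO libraries, against 44 and 52 in WT, although the WT libraries were deeper. This is 42.1 and 35.6 CPM in Mat KO libraries, against 13.8 and 16.0 CPM in WT, so that the lower Mat KO library lay above the higher WT library. Rptor averaged 38.9 ± 4.58 CPM in Mat KO and 14.9 ± 1.53 CPM in WT (SD, n = 2 libraries each; edgeR log2 fold change 1.41, SE 0.63, unadjusted p = 0.0474, adjusted p = 0.629). Transcripts were found in 9 of 44 (20.5%) and 15 of 48 (31.3%) Mat KO cells, against 5 of 48 (10.4%) and 8 of 48 (16.7%) in WT. The exact binomial 95% intervals of these shares, 9.80 to 35.3% and 18.7 to 46.3% in Mat KO and 3.47 to 22.7% and 7.48 to 30.2% in WT, cover counting error only and overlap. At equal depth the shares were 14.5% and 19.4% in Mat KO libraries, against 6.11% and 6.55% in WT. Rptor and Rragb were the members with a higher share of positive cells in both Mat KO libraries before thinning as well as after it. Without its leading cell in each library Rptor stood at 27.4 and 27.1 CPM in Mat KO and 9.11 and 10.8 CPM in WT. Lineage-low cells had 53.2 and 40.9 CPM in Mat KO and 14.3 and 16.8 CPM in WT. The annotation holds an antisense RNA, Rptoros, inside Rptor, and whether counting used the strand is not stated in the labels.

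Rictor (chr15:6708379-6800401, plus strand) encodes the defining subunit of mTORC2. It had 64.7 and 65.0 CPM in Mat KO libraries, against 62.8 and 62.7 CPM in WT. The genotypes did not overlap, but the difference was small (edgeR log2 fold change 0.08, SE 0.40, adjusted p = 0.984). They overlapped without the leading cells, at 53.1 and 51.5 CPM in Mat KO and 51.8 and 48.9 CPM in WT, and in lineage-low cells, at 54.6 and 72.0 CPM in Mat KO and 65.2 and 64.7 CPM in WT. The share of positive cells ran from 37.5% in WT replicate 1 to 66.7% in WT replicate 2, with the Mat KO libraries, at 18 of 44 and 24 of 48 cells, between them.

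Rheb (chr5:24802823-24842624, minus strand) encodes the GTPase that activates mTORC1 and was the most widely detected member, with UMIs in 155 of 188 cells. It had 138.9 and 223.3 CPM in Mat KO libraries, against 181.6 and 193.3 CPM in WT, so both WT values lay between the Mat KO values. Its log2 fold change was -0.01 (SE 0.31, edgeR adjusted p = 0.995). Rheb was seen in 31 of 44 (70.5%) and 38 of 48 (79.2%) cells of Mat KO libraries, against 45 of 48 (93.8%) and 41 of 48 (85.4%) in WT libraries. At equal depth the shares were 57.0% and 64.5% in Mat KO libraries, against 69.4% and 60.2% in WT, and the genotypes overlapped.

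Rragb (chrX:153139981-153171943, plus strand) encodes RagB, a GTPase that recruits mTORC1 to the lysosome. It was the sparsest member, with 117 UMIs in 20 cells. Rragb had 68 and 14 UMIs in Mat KO libraries, against 21 and 14 in WT, which is 35.8 and 7.92 CPM in Mat KO and 6.60 and 4.30 CPM in WT. Mat KO replicate 1 stood apart, because 50 of its 68 UMIs (73.5%) came from 1 lineage-low cell. Without the leading cell in each library the values were 9.47 and 4.52 CPM in Mat KO libraries, against 2.51 and 1.84 CPM in WT, and the genotypes still did not overlap. Few UMIs remained for this order. The leading cell held 6 of 14 UMIs in Mat KO replicate 2, 13 of 21 in WT replicate 1 and 8 of 14 in WT replicate 2. The log2 fold change was 2.02 (SE 1.02, edgeR adjusted p = 0.689), and it was 0.57 without Mat KO replicate 1 and 2.71 without Mat KO replicate 2. The cells with a UMI were few in every library, 5 of 44 and 6 of 48 in Mat KO libraries, against 5 of 48 and 4 of 48 in WT libraries. Counts of Rragb are uncertain because its close paralogue Rraga could share reads. Rraga had 10.5 and 4.52 CPM in Mat KO libraries, against 17.9 and 11.1 CPM in WT. Their sum was 46.3 and 12.4 CPM in Mat KO libraries, against 24.5 and 15.4 CPM in WT, and here the genotypes overlapped.

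**Figure D1:**
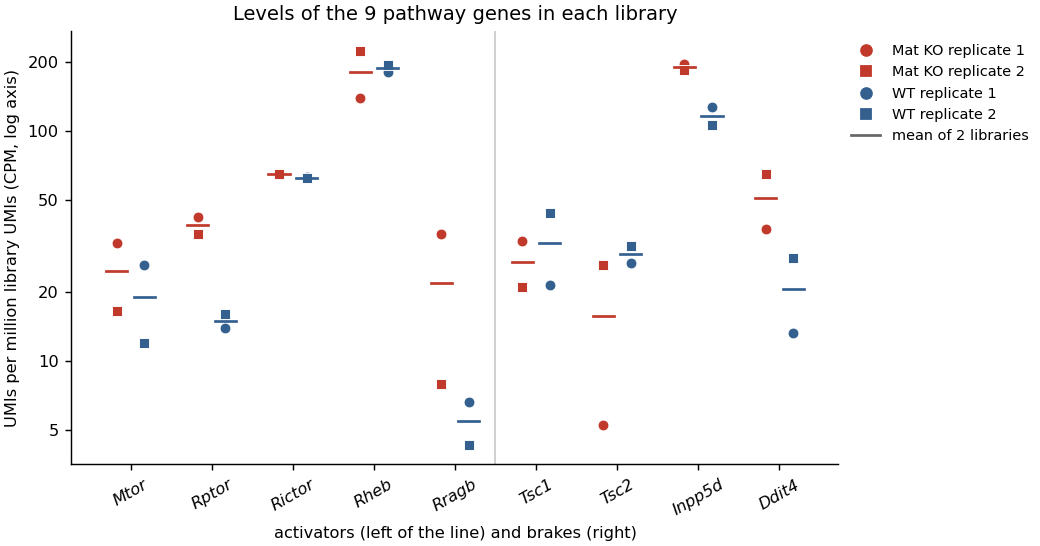
Level of each of the 9 genes in each library, in CPM (log axis), with Mat KO libraries left of WT libraries and a line at the mean of 2 libraries. Rptor, Rragb, Inpp5d and Ddit4 lie higher in both Mat KO libraries, Rictor does so narrowly (means of 64.9 CPM in Mat KO and 62.8 CPM in WT), and Tsc2 lies lower, down to 5.26 CPM in Mat KO replicate 1.

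Tsc1 (chr2:28641228-28691167, plus strand) and Tsc2 (chr17:24595816-24632630, minus strand) encode hamartin and tuberin, the partners of the complex that switches RHEB off. Tsc1 had 33.2 and 20.9 CPM in Mat KO libraries, against 21.4 and 44.0 CPM in WT, with overlapping genotypes (edgeR log2 fold change -0.24, SE 0.64, adjusted p = 0.966). In WT replicate 2, 65 of its 143 UMIs (45.5%) came from 1 cell. Tsc2 had 10 and 46 UMIs in Mat KO libraries, against 85 and 103 in WT libraries, or 5.26 and 26.0 CPM in Mat KO and 26.7 and 31.7 CPM in WT. It was the only member lower in both Mat KO libraries, although Mat KO replicate 2 and WT replicate 1 lay close together. The log2 fold change was -0.86 (SE 0.82, edgeR adjusted p = 0.857), -2.45 without Mat KO replicate 2 and -0.13 without Mat KO replicate 1. Mat KO replicate 1 thus carried most of the difference, with Tsc2 in 3 of its 44 cells (6.82%, exact binomial 95% interval 1.43 to 18.7%), against 12 of 48 in Mat KO replicate 2 and 12 of 48 and 15 of 48 in the WT libraries. Lineage-low cells gave 7.09 and 29.9 CPM in Mat KO libraries, against 27.7 and 29.1 CPM in WT, which overlap. The 3' end of Tsc2 lies within Pkd1, a gene on the opposite strand, over 693 bases, and Pkd1 itself had 13 UMIs in WT replicate 1 and 0 in the other libraries. Tsc1 and Tsc2 UMIs were found together in 1 and 0 Mat KO cells and in 3 and 6 WT cells.

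Inpp5d (chr1:87620312-87720507, plus strand) encodes SHIP1, a phosphatase of blood cells that removes a phosphate from the lipid product of PI3K. It had 372 and 325 UMIs in Mat KO libraries, against 404 and 346 in WT libraries, or 195.8 and 183.8 CPM in Mat KO and 126.9 and 106.3 CPM in WT. Both Mat KO libraries were above both WT libraries, and the spread within a genotype was smaller than the gap between them. Inpp5d averaged 189.8 ± 8.49 CPM in Mat KO and 116.6 ± 14.5 CPM in WT (SD, n = 2 libraries each; edgeR log2 fold change 0.73, SE 0.30, unadjusted p = 0.0318, adjusted p = 0.591). The share of positive cells as counted did not differ in the same way, at 68.2% and 70.8% of cells in Mat KO libraries, against 66.7% and 72.9% in WT libraries. At equal depth it was 48.7% and 54.9% in Mat KO libraries, against 40.7% and 44.3% in WT. Lineage-low cells had 229.2 and 194.7 CPM in Mat KO libraries, against 112.5 and 97.4 CPM in WT, a log2 fold change of 1.04 (edgeR adjusted p = 0.369), which was the highest of this gene over 16 alternative settings. With the stricter limit of 0.5% on lineage markers, which left 18 and 41 Mat KO cells and 38 and 41 WT cells, its log2 fold change was 0.27 (edgeR adjusted p = 0.974). The 3 cells with B-lymphoid markers all had it, with 43 UMIs in all and 685.1 CPM, and they were 1 in each Mat KO library and 1 in WT replicate 1.

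Ddit4 (chr10:59949669-59951834, minus strand) encodes REDD1, a short-lived protein that is induced by hypoxia, glucocorticoids and other stress and that promotes the action of the TSC complex. Ddit4 had 71 and 115 UMIs in Mat KO libraries, against 42 and 91 in WT, or 37.4 and 65.0 CPM in Mat KO and 13.2 and 28.0 CPM in WT. The lower Mat KO value was above the higher WT value, but by less than the 2 libraries of either genotype differed from each other. Ddit4 averaged 51.2 ± 19.6 CPM in Mat KO and 20.6 ± 10.4 CPM in WT (SD, n = 2 libraries each; edgeR log2 fold change 1.35, SE 0.61, unadjusted p = 0.0489, adjusted p = 0.632). Leaving out 1 library at a time moved the log2 fold change between 0.87, without Mat KO replicate 2, and 1.98, without WT replicate 2. Positive cells made up 29.5% and 41.7% in Mat KO libraries, against 27.1% and 35.4% in WT, which overlap, and 16.9% and 26.9% at equal depth in Mat KO libraries, against 8.45% and 15.7% in WT, which do not. It was also the only member with more UMIs per positive cell in both Mat KO libraries, 5.46 and 5.75, against 3.23 and 5.35 in WT libraries. In 3 members (Rheb, Tsc1 and Tsc2) that number was lower in both Mat KO libraries. Cells were not at equal depth for it, and the share over all genes was not computed. Lineage-low cells gave 48.2 and 74.6 CPM in Mat KO libraries, against 13.7 and 27.8 CPM in WT.

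Counted over the members, both Mat KO libraries were above both WT libraries in CPM for 5 of 9 genes, 3 activators and 2 brakes, where 17.8% of all genes tested had that order. They were below for 1 of 9, the brake Tsc2, where 21.3% of all genes had that order. Without the leading cell of each library, and in lineage-low cells, the counts were 4 above and 0 below, with Rictor and Tsc2 no longer separated. Leaving out a leading cell removed its UMIs of that gene but kept its other UMIs in the library total. Tsc2 overlapped only narrowly without leading cells, with 18.66 CPM in Mat KO replicate 2 and 18.53 CPM in WT replicate 1. Its order with the whole cell removed was not computed. Of all genes tested, 14.5% were above and 24.7% below without leading cells, and 16.6% above and 21.4% below in lineage-low cells. By edgeR, 0 of 9 members passed at an adjusted p of 0.05, where it called 0.075% of all genes (8 higher and 0 lower in Mat KO). DESeq2 also called 0 members, where it called 0.973% of the 11208 genes given an adjusted p (91 higher, 0.812%, and 18 lower, 0.161%). At an unadjusted p under 0.05 edgeR had 3 of 9 members higher, namely Rptor, Inpp5d and Ddit4, and 0 lower, where 7.82% of all genes had such a p, 4.5% higher and 3.32% lower. The median log2 fold change was 0.39 over the members, with 6 positive and 3 negative, and -0.01 over all genes tested. The 9 genes were proposed with earlier results of these data known, so this count is a description of the members and not support for a change of the pathway.

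**Figure D2:**
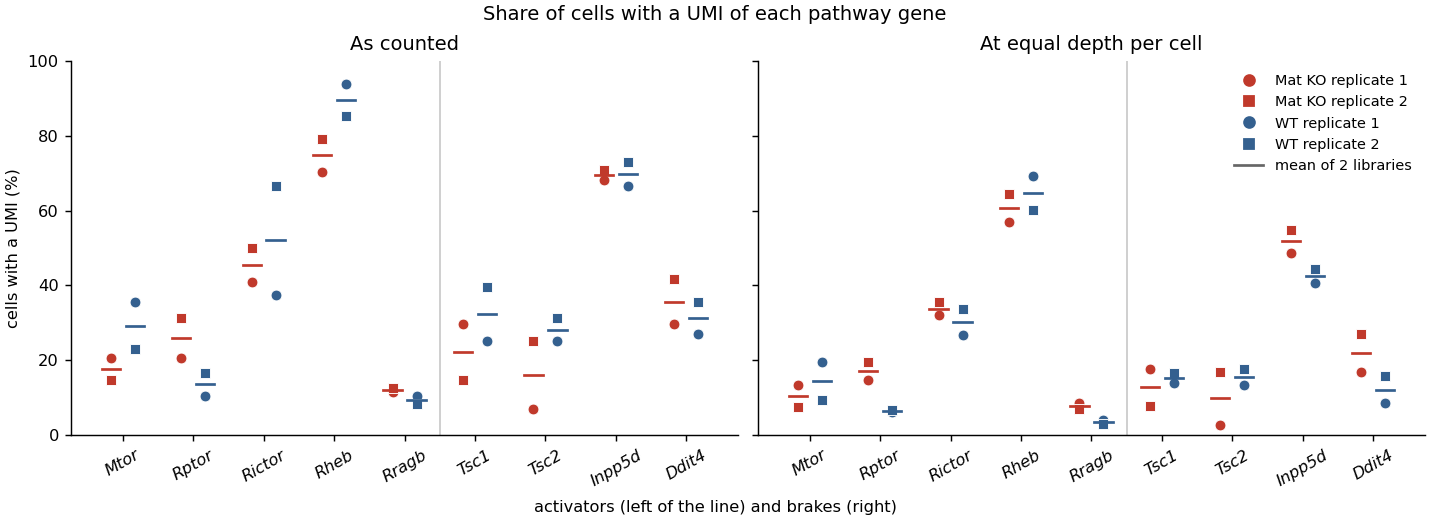
Share of cells with at least 1 UMI of each gene (percent of cells per library), with a line at the mean of 2 libraries. The left side is as counted. The right side is the mean chance of at least 1 UMI among 8877 drawn per cell, where shallower cells are left out. Equal depth puts 4 genes (Rptor, Rragb, Inpp5d and Ddit4) higher in both Mat KO libraries and leaves Mtor and Rheb overlapping.

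As counted, the share of positive cells was higher in both Mat KO libraries for 2 members (Rptor and Rragb) and lower for 2 (Mtor and Rheb), where 4.63% of all genes were higher and 42.4% lower. Mat KO cells had fewer UMIs, so at equal depth the background was nearer to even, with 14.3% of genes higher and 24.4% lower. At that depth 4 members were higher in both Mat KO libraries and 0 lower. Thinning used 38 and 41 Mat KO cells and 46 and 44 WT cells. An exact two-sided permutation test over the libraries gave p = 0.333 for each of the 4, which is the smallest p that 2 libraries against 2 allow. The mean share at equal depth was 17.0% in Mat KO and 6.33% in WT for Rptor, and 7.72% in Mat KO and 3.45% in WT for Rragb. For the brakes it was 51.8% in Mat KO and 42.5% in WT for Inpp5d, and 21.9% in Mat KO and 12.1% in WT for Ddit4.

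Summed over the activators, the level was 314.2 and 348.3 CPM in Mat KO libraries, against 290.9 and 288.3 CPM in WT. Summed over the brakes, it was 271.5 and 295.7 CPM in Mat KO libraries, against 188.2 and 209.9 CPM in WT. Both sums were higher in both Mat KO libraries, and the difference was larger for the brakes. Without the leading cell of each gene the activators overlapped, at 226.3 and 287.8 CPM in Mat KO and 233.4 and 245.9 CPM in WT, while the brakes had 214.2 and 218.2 CPM in Mat KO and 145.8 and 157.4 CPM in WT. The log2 ratio of activators over brakes was 0.21 and 0.24 in Mat KO libraries, against 0.63 and 0.46 in WT libraries, a difference of -0.32 between the means. Most of each sum is 1 gene: Rheb made up 44.2% and 64.1% of activator UMIs in Mat KO libraries, against 62.4% and 67.1% in WT. Inpp5d made up 72.1% and 62.1% of brake UMIs in Mat KO libraries, against 67.4% and 50.7% in WT. The direction of the ratio rested on Inpp5d and Ddit4. With the TSC genes as the only brakes, the log2 ratio was 3.03 and 2.89 in Mat KO libraries, against 2.60 and 1.93 in WT, a difference of 0.70 in the opposite direction. A mean of log2(CPM + 1) that gives each gene the same weight also turned round, with activators minus brakes at 0.62 and -0.43 in Mat KO libraries, against -0.01 and -0.77 in WT, where the genotypes overlapped. The transcripts therefore gave no direction for the balance that held across these ways of summing it.

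**Figure D3:**
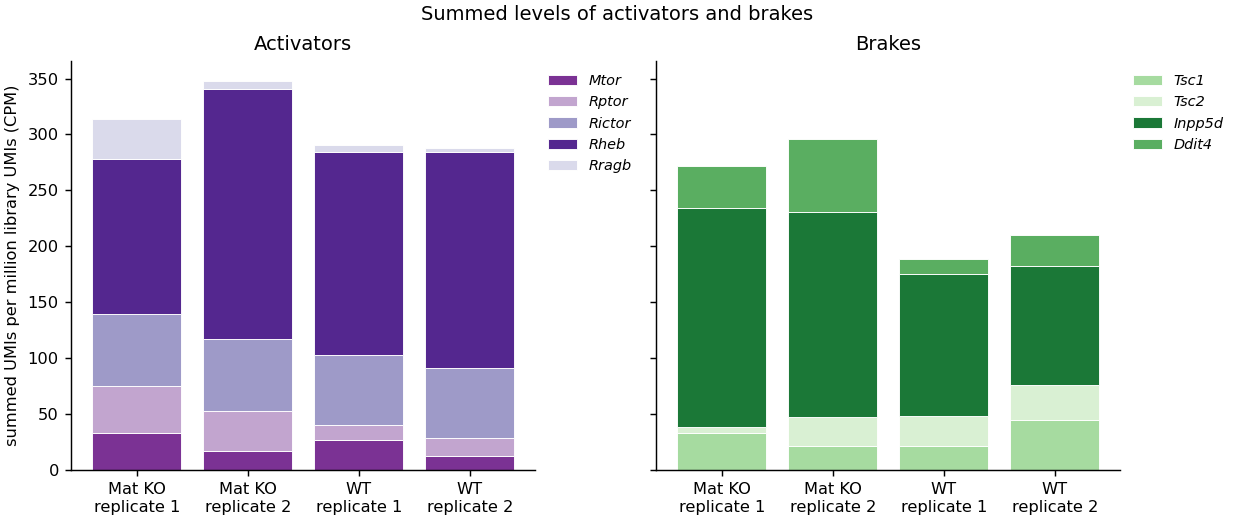
Summed CPM of the 5 activators (left) and 4 brakes (right) in each library, stacked by gene, with Mat KO libraries left of WT libraries. Rheb and Inpp5d make up most of the bars, and the brake bars reach 271.5 and 295.7 CPM in Mat KO libraries, against 188.2 and 209.9 CPM in WT.

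Within single cells, a mean of 2.98 and 3.40 members was detected in Mat KO libraries, against 3.31 and 3.79 in WT libraries, with at most 8 of 9 in 1 cell. At equal depth the means were 1.92 and 2.49 members in Mat KO libraries, against 2 and 2.09 in WT. The genotypes overlapped on both measures. The number followed depth, from 2.59 members in the 63 shallowest cells (2229 to 23465 UMIs) through 3.21 in the next 62 to 4.33 in the 63 deepest (56600 to 287142 UMIs). At least 1 activator and 1 brake were seen together in 30 of 44 and 41 of 48 Mat KO cells, against 40 of 48 and 42 of 48 WT cells, and 5 of 188 cells had no member UMI. Mtor with Rptor, the mTORC1 core, was seen together in 1 and 1 Mat KO cells and in 4 and 2 WT cells, and Mtor with Rictor, the mTORC2 core, in 5 and 3 Mat KO cells and in 7 and 10 WT cells. At these depths a cell without a UMI is not shown to lack the transcript, and Mtor on its own was seen in 44 of 188 cells.

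Single cells gave many of a gene's UMIs in a library, and some of these leading cells were deep. Others were not, such as the cell that led for Tsc2 in Mat KO replicate 2. It had 19467 UMIs, where the median cell of that library had 27845. The deepest cell of all, in WT replicate 1 with 287142 UMIs, led its library for Rheb, Tsc1, Tsc2 and Ddit4. In Mat KO replicate 2 the second deepest cell, with 156905 UMIs, led for Rptor, Rheb and Inpp5d, and held 82 of 325 Inpp5d UMIs (25.2%). The share of a gene's UMIs held by its leading cell ran from 9.38%, for Rheb in WT replicate 2, to 73.5%, for Rragb in Mat KO replicate 1. Levels per library therefore rest on a few cells with high counts as well as on the number of positive cells.

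**Figure D4:**
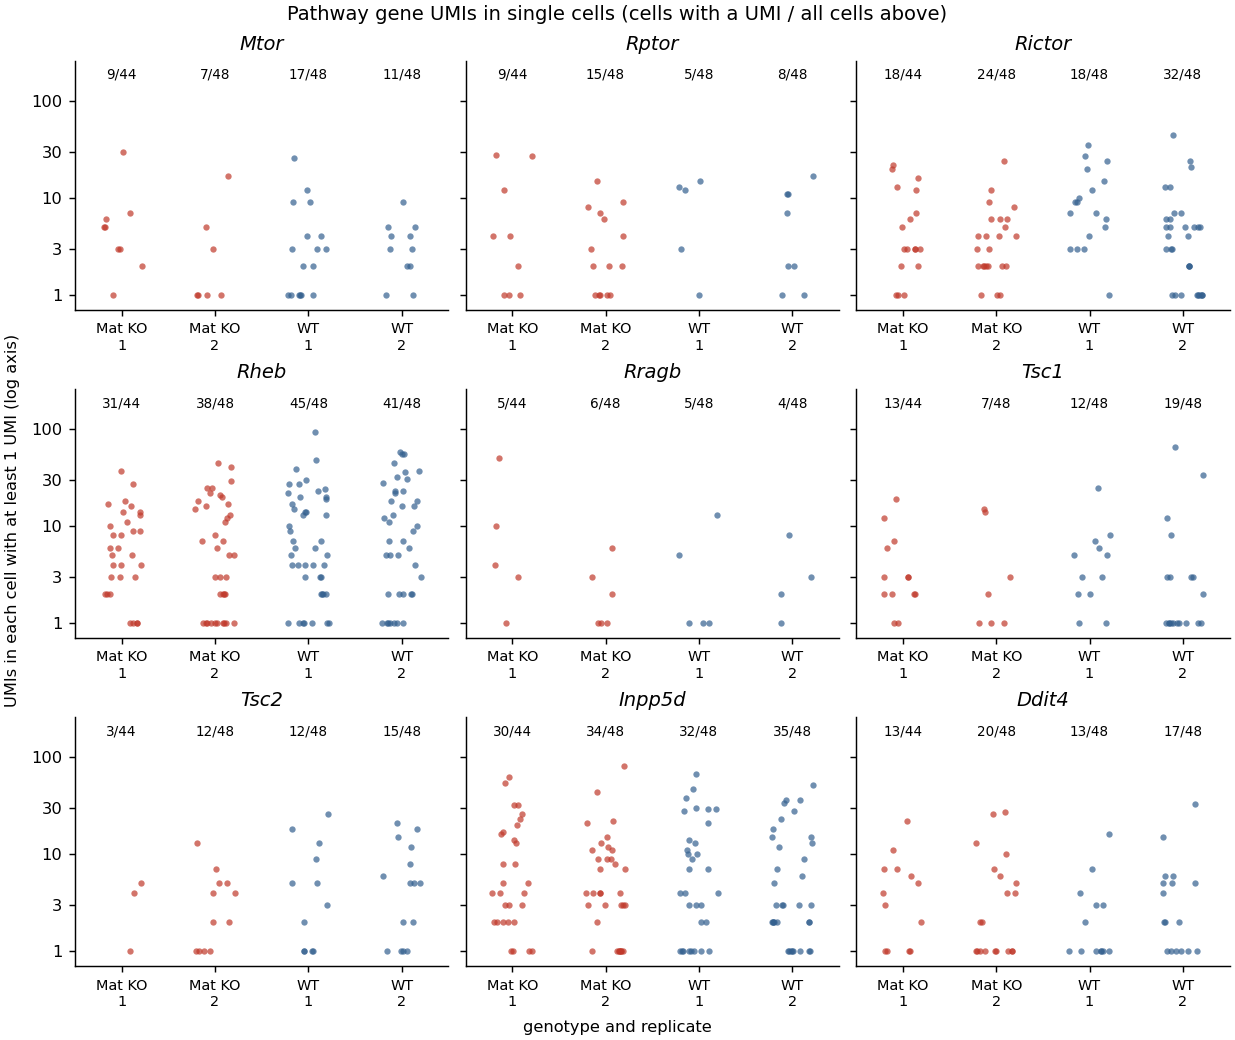
UMIs of each gene in each cell that had at least 1 (log axis), by genotype and replicate, with the number of such cells over all kept cells written above each group. The cell with 50 Rragb UMIs in Mat KO replicate 1 and the cell with 65 Tsc1 UMIs in WT replicate 2 stand above the rest of their groups.

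Over all libraries together, the 18 cells with granulocyte and monocyte markers differed from the 167 lineage-low cells in some members. Mtor had 63.1 CPM in the marker cells and 15.9 CPM in lineage-low cells, though 30 and 17 of its 59 UMIs in marker cells came from the 2 leading Mat KO cells named above. Rptor had 5.35 CPM in marker cells and 25.7 CPM in lineage-low cells, and Ddit4 had 8.55 CPM in marker cells and 34.1 CPM in lineage-low cells. Levels were closer for Rictor, with 57.7 CPM in marker cells and 64.6 CPM in lineage-low cells, for Rheb, with 208.5 CPM in marker cells and 182.9 CPM in lineage-low cells, and for Inpp5d, with 144.3 CPM in marker cells and 139.3 CPM in lineage-low cells. Of the marker cells, 10 and 3 were from Mat KO and 2 and 3 from WT, so these sums weigh Mat KO replicate 1 most and carry no test. For Inpp5d the sums hide opposite orders by genotype. Marker cells had 94.7 and 73.7 CPM in Mat KO libraries, against 229.2 and 194.7 CPM in lineage-low cells. In WT libraries marker cells had 314.1 and 274.5 CPM, against 112.5 and 97.4 CPM in lineage-low cells. Rheb in marker cells ran from 78.9 CPM in Mat KO replicate 2 to 561.2 CPM in WT replicate 2. These values rest on few cells.

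Only Rictor, Rheb and Inpp5d were seen in at least 20% of the 169 thinned cells, which allowed a search for genes with a like pattern over cells. Among 4175 genes, with log2(1 + UMI) centred in each library, the closest to Inpp5d were Slc1a5 (Pearson r = 0.37), Tspan13 (0.36) and Cep57l1 (0.34), and the closest to Rheb was Nr4a3 (0.30). No gene reached 0.3 for Rictor. These are weak values over sparse counts of cells that share library and depth, given as a description of 169 cells.

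The wider pathway was described by 13 lists of 115 genes, of which 108 were tested. By edgeR 0 of 108 passed at an adjusted p of 0.05, and DESeq2 also called 0, where edgeR called 0.075% and DESeq2 0.973% of all genes. At an unadjusted p under 0.05 edgeR had 6 higher and 2 lower, where 4.5% of all genes were higher and 3.32% lower. The fold changes were split evenly, with 54 positive and 54 negative and a median of 0.00 on the log2 scale, beside -0.01 over all genes. Both Mat KO libraries were above both WT libraries in CPM for 16 of the 108 and below for 15, where 17.8% and 21.3% of all genes had those orders. Below, this count is given only for lists where it was high. Other lists had fewer, such as the Rag and Ragulator genes (0 of 11 above, 1 below) and the sterol synthesis genes (2 of 13 above, 1 below).

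Upstream, the PI3K subunits (9 tested, 6 positive, median log2 fold change 0.18) included Pik3ap1, an adaptor of PI3K in blood cells, with 44.7 and 22.1 CPM in Mat KO and 12.9 and 9.84 CPM in WT (log2 fold change 1.58, edgeR adjusted p = 0.648, and 0.99 without Mat KO replicate 1). Pik3r1, the regulatory subunit p85α, had 219.4 and 327.4 CPM in Mat KO and 283.7 and 286.5 CPM in WT. The other lipid and AKT phosphatases and PI3K inhibitors, which act on the same step as Inpp5d or the next, were 7 listed genes. Of these Inppl1 had too few counts to be tested, with 1 and 1 UMIs in Mat KO libraries, against 28 and 0 in WT. The 6 tested genes all had positive fold changes, with a median of 0.86. Both Mat KO libraries were above both WT libraries in 3 of these 6, where 17.8% of all genes tested had that order. Among them Phlpp1, which dephosphorylates AKT, had 31.6 and 17.0 CPM in Mat KO and 1.57 and 10.8 CPM in WT (log2 fold change 1.99, edgeR adjusted p = 0.693), and its log2 fold change was 1.19 without WT replicate 1 and 3.92 without WT replicate 2. The kinases between them and TSC gave no separation, with Akt1 at 152.6 and 55.4 CPM in Mat KO and 82.9 and 83.3 CPM in WT.

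At the mTOR complexes, 3 of 8 other subunits had positive fold changes (median -0.40), and Mapkap1, which encodes the mTORC2 subunit SIN1, had 79.5 and 82.0 CPM in Mat KO and 38.6 and 50.4 CPM in WT (log2 fold change 0.89, edgeR adjusted p = 0.654). The other Rag and Ragulator genes, which hold mTORC1 at the lysosome, had 7 of 11 positive and a median of 0.17. Fnip1, a partner of folliculin, had 83.1 and 197.9 CPM in Mat KO and 71.3 and 95.9 CPM in WT, and Lamtor5 of the Ragulator had 109.5 and 96.1 CPM in Mat KO and 104.3 and 119.9 CPM in WT. The GATOR, KICSTOR and sestrin genes, which relay amino acid supply to the Rag GTPases, went mostly the other way, with 12 of 14 fold changes negative, a median of -0.47 and 6 of 14 genes lower in both Mat KO libraries, where 21.3% of all genes tested had that order. Nprl2, a subunit of the GATOR1 brake, had 4 and 2 UMIs in Mat KO libraries, against 43 and 92 in WT libraries, which is 2.11 and 1.13 CPM in Mat KO and 13.5 and 28.3 CPM in WT (log2 fold change -3.62, SE 1.14, edgeR adjusted p = 0.468, and -2.99 without WT replicate 2). Sec13, a subunit of GATOR2 and of the COPII coat, had 56.8 and 45.2 CPM in Mat KO and 60.9 and 62.1 CPM in WT. Among the TSC partner and AMPK genes 3 of 8 were positive (median -0.40), with Prkaa2, a catalytic AMPK subunit, at 18.9 and 17.0 CPM in Mat KO and 2.20 and 3.07 CPM in WT (2.77, edgeR adjusted p = 0.588), and Stk11, which encodes the AMPK kinase LKB1, at 47.9 and 56.5 CPM in Mat KO and 102.7 and 65.8 CPM in WT.

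Downstream, the mTORC1 and S6 kinase substrates had 2 of 9 fold changes positive and a median of -0.07. Eif4ebp2, a repressor of cap-dependent translation, had 34.2 and 36.2 CPM in Mat KO and 72.6 and 43.3 CPM in WT (log2 fold change -0.69, edgeR adjusted p = 0.786), and Pdcd4, an inhibitor of the helicase eIF4A, had 353.1 and 318.9 CPM in Mat KO and 517.4 and 320.3 CPM in WT. Of the 3 FOXO factors that AKT keeps out of the nucleus, 1 had a positive and 2 a negative fold change, with a median of -0.91. The positive one was Foxo1, which had the most UMIs of the 3, with 68.4 and 84.8 CPM in Mat KO and 55.0 and 55.9 CPM in WT. Sterol synthesis genes, which mTORC1 raises through SREBP factors, had 6 of 13 positive and a median of -0.18. In that list Insig1, which retains SREBP in the endoplasmic reticulum, had 54.2 and 61.1 CPM in Mat KO and 13.2 and 25.5 CPM in WT (log2 fold change 1.60, edgeR adjusted p = 0.538).

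The pathways known to induce Ddit4 gave mixed values. Of the glucocorticoid-induced genes 5 of 6 were positive, with a median of 0.37 and 3 of 6 above in both Mat KO libraries, where 17.8% of all genes tested were. Among them was Klf9 at 117.9 and 239.7 CPM in Mat KO and 104.9 and 83.6 CPM in WT (log2 fold change 0.96, edgeR adjusted p = 0.590, and 0.33 without Mat KO replicate 2). Tsc22d3 had 307.3 and 211.5 CPM in Mat KO and 272.0 and 183.5 CPM in WT. Of the hypoxia-induced genes 5 of 7 were positive, with a median of 0.38. Vegfa had 204.2 and 165.1 CPM in Mat KO and 81.0 and 134.0 CPM in WT (0.81, edgeR adjusted p = 0.602), and Egln3, an oxygen-sensing hydroxylase, had 45.3 and 37.9 CPM in Mat KO and 13.8 and 3.07 CPM in WT (2.33, edgeR adjusted p = 0.537). The log2 fold change of Egln3 was 3.75 without WT replicate 1, 1.61 without WT replicate 2 and 1.33 at equal depth. For ATF4 and its targets 4 of 9 were positive, with a median of -0.03. Atf4 itself had 476.8 and 344.3 CPM in Mat KO and 416.2 and 327.9 CPM in WT, and Trib3, which binds AKT, had 32.1 and 16.4 CPM in Mat KO and 2.51 and 5.22 CPM in WT (2.66, edgeR adjusted p = 0.565, and 3.26 without WT replicate 2).

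**Figure D5:**
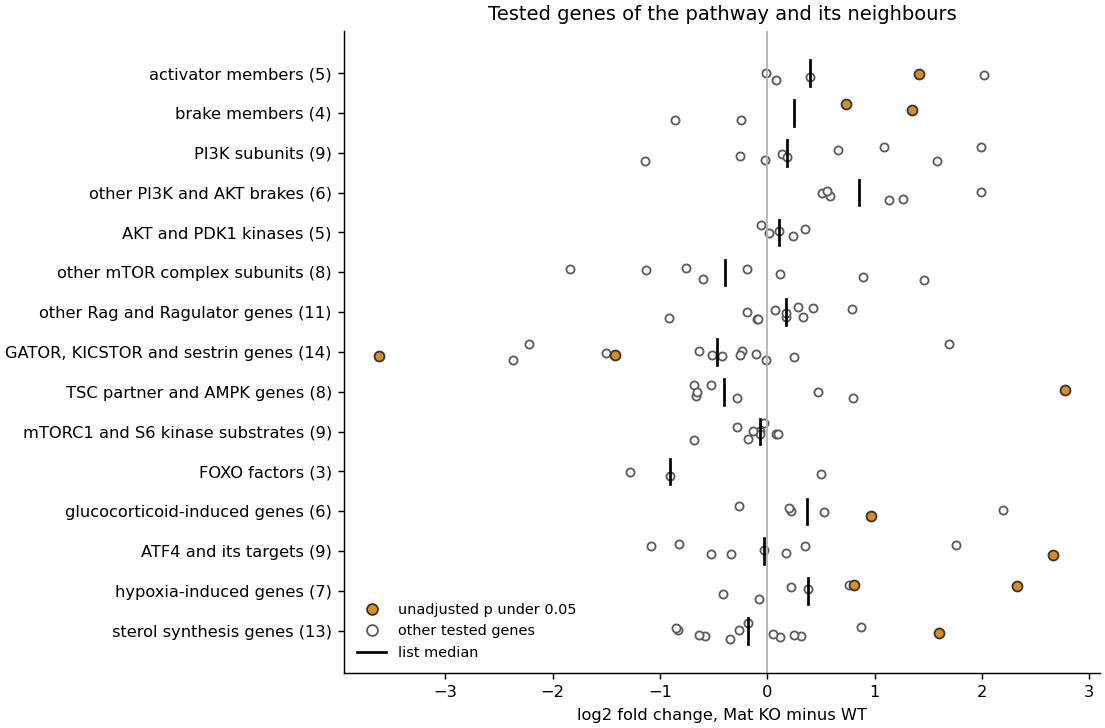
Log2 fold change (Mat KO minus WT) of each tested gene in the 2 member lists and the 13 wider lists, with the number tested in brackets, filled points for an unadjusted p under 0.05 and a bar at each list's median. The other PI3K and AKT brakes lie right of 0 in 6 of 6 genes and the GATOR, KICSTOR and sestrin genes left of 0 in 12 of 14, and no gene passed after adjustment over all genes.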

How the data were processed

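Single-cell RNA was profiled in 4 libraries, 2 of Mat KO and 2 of WT mice. The authors deposited unnormalized UMI counts for every barcode and gene of a library. TopHat2 2.0.12, HTSeq and the mm10 build are listed, without their roles, per the submitters' processing notes. Use of strand in counting and the treatment of reads from paralogues are not stated in the labels. The 95 spike-in or marker rows (92 of them ERCC) stayed out of totals and tests.

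Of 96 barcodes per library, those with at least 1000 detected genes were kept. No doublet caller was run, since cells were picked singly. The 4 libraries use the same barcode numbers (44 were kept in all 4), which do not mark shared cells. Cells are not replicates, so counts were summed per library. The test was edgeR 4.0.16 (R 4.3.3), quasi-likelihood, two-sided, on genes kept by filterByExpr, with TMM scaling, a design of genotype alone, Benjamini-Hochberg adjustment over all 10663 genes tested and a threshold of 0.05. A positive log2 fold change means higher in Mat KO, and fold changes of low genes depend on edgeR's prior count. SE is the absolute log2 fold change over the square root of the test's F value, not a standard error that edgeR fitted. CPM are UMIs per 1000000 UMIs of a library's kept cells. Values without leading cells drop a gene's UMIs in its leading cell but keep the library's total. For equal depth each cell was thinned at random to 8877 UMIs, the 10th percentile over cells, which left out 19 of 188 cells. The members' shares of positive cells at equal depth do not come from that draw. They are the mean over cells of the calculated chance that 8877 drawn UMIs hold at least 1 of the gene. Intervals are exact (Clopper-Pearson) at 95%. UMIs of 1 cell can over-count molecules, so intervals cover counting error only.

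Lineage-low cells are those in which no list of granulocyte and monocyte, B-lymphoid, erythroid, T and NK, or mast cell and basophil markers took 1% or more of UMIs. Beside the members, the genes named are, for each of 13 pathway lists, the tested gene of smallest p and that with most UMIs, and for members in at least 20% of thinned cells the 3 closest genes with r of at least 0.3; some genes that this rule names are not reported here. The members, the lists and the tests were chosen with earlier results of these data known. Coordinates are from GENCODE M21 (GRCm38), and promoters from RefSeq, where 9 of 9 members matched. Alternatives were DESeq2 1.42.0, other filters and factors, equal depth, other cell sets and leaving out each library. The procedure was tested on simulated data.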

Additional observations from a re-analysis of the deposited data

How the results depend on the processing

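No member and no gene of the 13 lists passed at an adjusted p of 0.05 in any of 16 alternatives, where the lowest adjusted p of a member was 0.277 (Rragb without Mat KO replicate 2, edgeR). Rptor (1.16 to 1.62, 15 alternatives), Rragb (0.57 to 2.90, 14), Inpp5d (0.27 to 1.04, 16) and Ddit4 (0.87 to 1.98, 16) kept a positive log2 fold change wherever they were tested, and at equal depth Rptor and Rragb were not tested. The count over all genes, 8, became 109 with DESeq2, 149 without a filter, 17 with a mean of at least 50 UMIs, 5 with at least 2000 genes per cell, 3 at equal depth, 0 without leading cells, 0 at a lineage limit of 0.5%, and 17 to 123 without 1 library. A replicate block gave 109 calls, none of them a member. Deviations of same-numbered libraries from their genotype means correlated at r = -0.017. With 2 libraries per genotype this is the same value for both numbers, and it cannot exclude a pairing. Levels, an unlike measure, correlated at 0.799 between the Mat KO libraries and 0.840 between the WT libraries.

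Log2 fold changes that turned sign were mostly near 0. In lineage-low cells, and at limits of 0.5% and 2%, Mtor was -0.61, -1.67 and -0.56, Rictor -0.0022, -0.18 and -0.033, and Rheb 0.16, 0.15 and 0.068. At equal depth Mtor was -0.34, Tsc2 0.12, Pik3r1 0.0027 and Sec13 0.014, and without leading cells Mtor was -0.10, Rheb 0.072, Tsc1 0.041 and Pik3r1 0.11. Rheb was 0.0012 with RLE factors and 0.0035 with a mean of at least 50 UMIs, Pik3r1 0.044 and 0.052 in lineage-low cells and at 2%, and at 0.5% Tsc1 was 0.041 and Foxo1 -0.67. Leaving out 1 library spanned 0 for Mtor (-0.18 to 1.04), Rheb (-0.42 to 0.29), Tsc1 (-0.68 to 0.36), Akt1 (-0.55 to 0.89), Atf4 (-0.073 to 0.37), Lamtor5 (-0.20 to 0.0045), Pdcd4 (-0.60 to 0.088), Pik3r1 (-0.37 to 0.24) and Tsc22d3 (-0.068 to 0.52). The cause was not tested.

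The 5 members above in both Mat KO libraries became 3 at 0.5% and 5 to 6 without 1 library. The 1 below became 0 without leading cells, in lineage-low cells and at 2%, 2 at 0.5%, and 1 to 2 without 1 library. The share of positive cells was higher for 4 and lower for 0 members at equal depth, and without 1 library higher for 2 to 5 and lower for 2 to 6. Shares over all genes were not computed at 0.5%, at 2% or without 1 library. With 1 library left out such an order is reached more easily, so these counts cannot be compared with those of all 4 libraries. The log2 ratio of sums, -0.32, was 0.70 without Inpp5d and Ddit4, -0.42 without leading cells and -0.50 in lineage-low cells. The difference of mean log2(CPM + 1), 0.48, was 1.34 without Inpp5d and Ddit4 and -0.04 to 1.01 without 1 library. The fit without scaling factors was added after the data were seen. Depth limits the sparse members most, since Rragb had 20 positive cells.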
